A study of Oryctolagus cuniculus with 16 samples.

Results

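Long non-coding RNAs (lncRNAs) are transcripts of gene length that are not known to be translated into protein. Some stay in the nucleus and act on chromatin or on transcription of nearby genes, others act in the cytoplasm on mRNAs, proteins or microRNAs, and for most of them no function is known. In bone and cartilage, lncRNAs have been linked to chondrocyte and osteoblast differentiation and to the response to low oxygen. The lncRNAs described here were the 200 most abundant of the 3413 genes typed as lncRNA in a count table of 20255 genes from rabbit femoral head, the other 16842 genes of which were typed as mRNA. They were chosen by their mean CPM, the counts of a gene scaled to a common library size, over all 8 libraries, so their high level and their rank are how they were found and not results. The ranking did not use the difference between the groups. Left out by name, however, were genes that include HIF3A and LOC103350994, which the study lists as differentially expressed lncRNAs.

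The tissue was the femoral head of wild-type rabbits, analysed by total RNA sequencing after removal of ribosomal RNA. In 5 rabbits Perthes disease was modelled by surgery at 8 weeks of age, with ligation of the femoral neck and transection of the ligamentum teres, so that the growing femoral head lost its blood supply. The other 3 rabbits were healthy controls, for which no operation is described in the sources used here, so the ischemia and the surgery itself cannot be told apart. The time from the operation to sampling, and the sex of the rabbits, were not given in the sources used here. The libraries held 26757087 to 29461482 counts. As the samples are whole tissue, fewer cells of a type and less RNA per cell cannot be told apart in any of the values below.

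The labelled tissue was checked with marker genes. Cartilage and bone genes were the most counted of the marker lists, with a summed 39789 to 154540 CPM for the cartilage list and 46394 to 145726 CPM for the osteoblast and osteocyte list in the Perthes rabbits. In the controls these sums were 47320 to 69186 and 74003 to 92542 CPM. Skeletal muscle markers, 4 of 8 of which were in the table, summed to 2.21 to 11.1 CPM over all rabbits. Of the marrow lists 3 differed most: the erythroid list summed to 660 to 2936 CPM in the Perthes rabbits and to 5937 to 6537 CPM in the controls, the neutrophil list to 511 to 3070 and 7688 to 22935 CPM, and the megakaryocyte list to 6.79 to 129 and 230 to 585 CPM. Of their tested markers 1 of 10, 3 of 8 and 2 of 6 were called lower. The B cell and T cell lists overlapped between the groups, at 76.5 to 103 against 81.9 to 125 CPM and at 7.71 to 24.5 against 16.1 to 33.4 CPM. The fibroblast list went the other way, with 14883 to 26320 CPM in the Perthes rabbits and 1673 to 9127 CPM in the controls. So did the macrophage list, at 720 to 6905 against 378 to 394 CPM, and the osteoclast list, at 2856 to 5782 against 1335 to 2423 CPM. All 10 cycling cell markers were called lower in Perthes. No list had a marker at 0 in every library.

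Most of the abundant lncRNAs had no name. Of the 200, 150 carried only an identifier of the annotation beginning with BGIG, 41 a LOC number and 9 a gene name, and none of the 16 annotation columns of the table was filled for any of them. By gene ID, 26 of the 200 matched a RefSeq record of the rabbit (assembly mOryCun1.1). RefSeq typed 23 of these as lncRNA and 3 as protein coding, namely LOC103345823, LOC103349113 and LOC108177718. RefSeq names LOC103349113 as IRS2, an adaptor protein of insulin signalling, and LOC103348677 as SMIM30, known for a small membrane peptide. All 9 members with a gene name were lncRNA in RefSeq as well, although their symbols (APLN, SMCO4, SCRG1, RPS28, GNG5, NDUFA1, ATP5MD, CDC42SE2 and ZBTB38) are those of protein-coding genes in other mammals, and no other gene of the table carried these symbols. Of 76 symbols in a list drawn up from known lncRNAs, 0 stood in the table as lncRNA and 1 (TRERF1) as mRNA, so a match of the BGIG identifiers to known lncRNAs was not analysed here.

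The level of the members, as mean CPM over the 8 rabbits, ran from 8.31 to 19597 with a median of 17.4. Only 13 members were over 100 CPM and 5 over 1000 CPM. At the limit of the list, BGIG9986_28554, BGIG9986_25174 and BGIG9986_26896 were just inside at 8.43, 8.34 and 8.31 CPM, and BGIG9986_27495, BGIG9986_26940 and BGIG9986_27167 were just outside at 8.30, 8.25 and 8.20 CPM. The values at the limit are close together, and 194 of the 200 lncRNAs with the highest median CPM, and 199 of the 200 with the highest mean of the group means, were the same genes. The rule also left out 4 genes by name. LOC100353127 is typed as mRNA in the table, so leaving it out had no effect, and of the 3 lncRNAs only LOC103350994, at 29.4 CPM, would have been a member, with rank 54. Gene lengths were not used, so CPM ranks lncRNAs by reads and not by molecules. Every member passed the filter on low counts, and 198 of the 200 had at least 10 counts in every library.

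The 200 members held nearly all of the lncRNA reads, and a few of them held most. The members took 95.0% to 97.2% of the counts of all lncRNAs in each library, and the 3 most counted members, BGIG9986_29669, BGIG9986_29683 and BGIG9986_29670, took 74.6% to 88.9% of the counts of the members. Together the 200 members made up 3.82%, 5.97%, 6.02%, 4.85% and 4.99% of the library in Perthes rabbits 1 to 5 and 7.57%, 5.85% and 4.56% in controls 1 to 3. The groups overlapped: the means were 5.13% ± 0.910 (SD, n = 5) in Perthes and 5.99% ± 1.51 (SD, n = 3) in the controls, and an exact two-sided permutation test over the 56 divisions of the rabbits gave p = 0.429, where the smallest p the design allows is 0.0357. The share of all lncRNA counts on BGIG9986_29669 alone was 34.2% ± 3.28 (SD, n = 5) in Perthes and 34.3% ± 2.13 (SD, n = 3) in the controls (exact permutation test, two-sided, p = 1). The members below the 5 most counted made up 0.508% ± 0.0866 (SD, n = 5) of the library in Perthes and 0.607% ± 0.0462 (SD, n = 3) in the controls (exact permutation test, two-sided, p = 0.179). Over the 11 shares tested, which overlap in what they count, the Benjamini-Hochberg adjusted p was 0.730 to 1 (exact permutation tests), with 0.730, 1 and 0.730 for the shares above in that order.

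**Figure D1:**
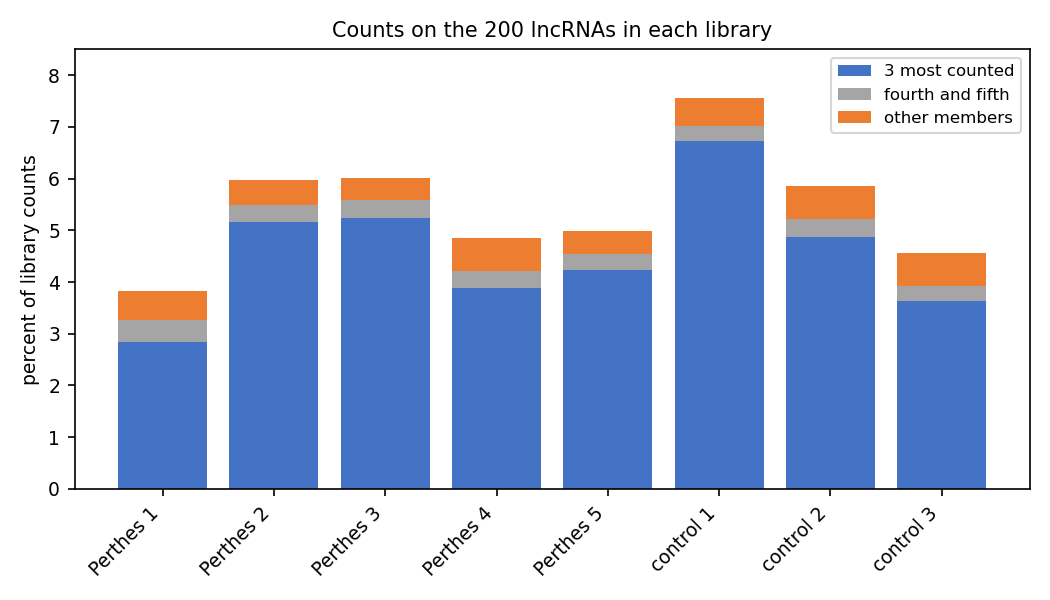
Stacked bars give, for each of the 8 rabbits, the percent of library counts on the 3 most counted lncRNAs, on the next 2, and on the members below these 5. The total height runs from 3.82% in Perthes rabbit 1 to 7.57% in control 1, most of it is the 3 most counted lncRNAs, and the bars of the groups overlap.

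The most counted member, BGIG9986_29669, was at 10956, 23959, 23955, 17197 and 19157 CPM in Perthes rabbits 1 to 5 and at 28078, 19725 and 14823 CPM in controls 1 to 3, here and below as CPM scaled by the trimmed mean of M values (TMM). BGIG9986_29683 was at 8287, 18429, 19655, 14538 and 13956 CPM against 21717, 14240 and 10618 CPM. BGIG9986_29670 was at 7038, 12568, 12888, 9426 and 9390 CPM against 16532, 12041 and 9352 CPM. All were lowest in Perthes rabbit 1 and highest in control 1, the groups overlapped, and the log2 fold changes of Perthes over control were -0.13 (SE 0.36), -0.05 (SE 0.38) and -0.30 (SE 0.32), none of which passed the test. The ratios between these RNAs varied less than their levels. The ratio of BGIG9986_29669 to BGIG9986_29683 stayed between 1.18 and 1.40 over the 8 rabbits, with a coefficient of variation (CV) of 5.92%, its ratio to BGIG9986_29670 between 1.56 and 2.04 (CV 9.69%), and that of BGIG9986_29683 to BGIG9986_29670 between 1.14 and 1.54 (CV 12.6%). Estimated counts can share reads between near-identical copies, and whether these genes share sequence was not analysed here.

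The next 2, BGIG9986_27345 and BGIG9986_29289, did not pass the test either. BGIG9986_27345 averaged 2073 ± 437 CPM (SD, n = 5) in Perthes and 1518 ± 326 CPM (SD, n = 3) in the controls, and BGIG9986_29289 averaged 1487 ± 254 CPM (SD, n = 5) and 1427 ± 360 CPM (SD, n = 3). Of the next 5, BGIG9986_26941 was called higher and is described below, and BGIG9986_24469, BGIG9986_29290, LOC103351124 and BGIG9986_25196 had log2 fold changes of -0.61, 0.14, 0.39 and 0.74 with edgeR adjusted p-values of 0.182, 0.797, 0.397 and 0.0879. BGIG9986_25196 was nevertheless higher in each of the 5 Perthes rabbits (154.6 to 232 CPM) than in any control (66.9 to 144 CPM).

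To ask which of the abundant lncRNAs differed between diseased and control femoral heads, the expected counts of all genes were fitted together with the quasi-likelihood test of edgeR, and a gene was called at a log2 fold change beyond 1 with a Benjamini-Hochberg adjusted p below 0.05 over the 15305 genes tested. The members called were 7 of 200, or 3.5%, against 10.9% of all genes tested. Of these, 4 were higher in Perthes (BGIG9986_26941, APLN, SMCO4 and LOC108176480), where 4.21% of all genes were called higher, and 3 were lower (LOC103350775, LOC108175687 and LOC103349113), where 6.72% of all genes were called lower. The 3 called lower averaged 3.58, 5.78 and 6.52 CPM in Perthes, below the 8.31 CPM at the limit of the list. Their place in the list thus rests on their controls. APLN averaged 5.45 CPM in the controls, so its place rests on the Perthes rabbits. The uncalled BGIG9986_27810 and LOC103350441 averaged 4.99 and 6.33 CPM in Perthes. With adjusted p below 0.05 and no limit on the fold change, 5 members were higher and 5 lower, against 6.21% and 8.86% of all genes tested. The study describes 5 and 3 rabbits, but the titles of controls 2 and 3 both say replicate 2 and only their library codes tell them apart. Their counts differ, and they were taken as separate animals, so the p-values rest on the spread between these libraries.

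**Figure D2:**
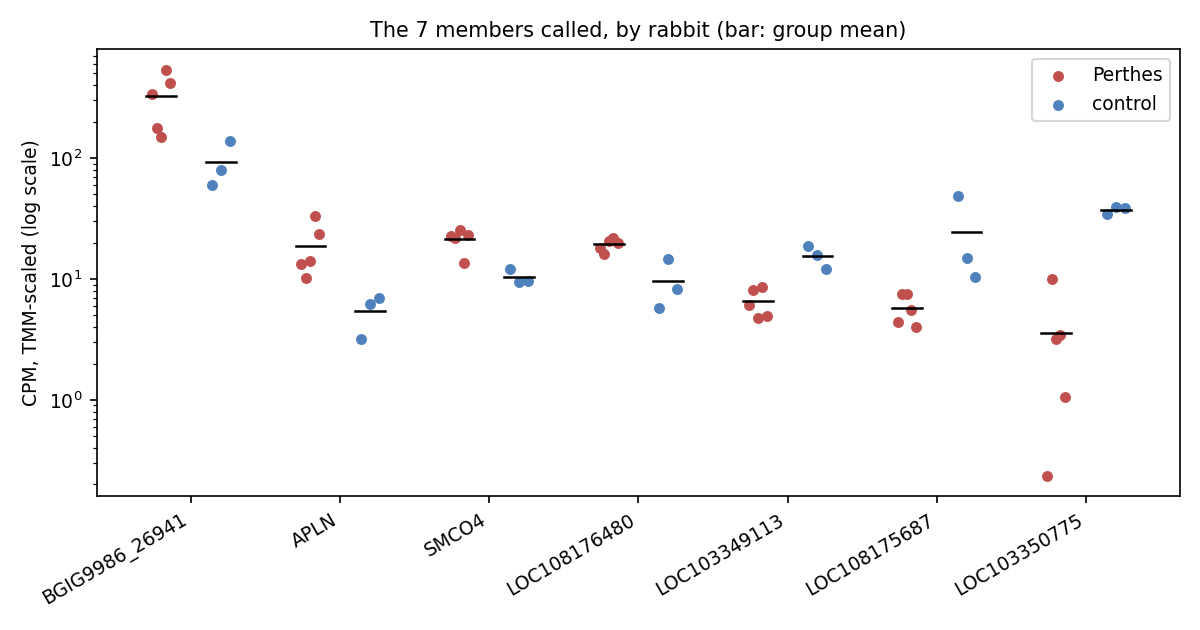
Each point is 1 rabbit (5 Perthes, 3 control) and each bar a group mean, as TMM-scaled CPM on a log scale, for the 7 lncRNAs called. For each of them the groups do not overlap, and the widest gap is that of LOC103350775, from at most 9.96 CPM in Perthes to at least 34.5 CPM in the controls.

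Among the lncRNAs called higher, the unnamed BGIG9986_26941 was the most abundant, with rank 6 of the 200. It was at 336, 176, 149, 539 and 415 CPM in Perthes rabbits 1 to 5 and at 59.3, 79.1 and 138 CPM in controls 1 to 3. Every Perthes rabbit was above every control, with the lowest Perthes rabbit close to the highest control, and the log2 fold change was 1.81 (SE 0.49, edgeR adjusted p = 0.0381). Over the 8 rabbits its log2 CPM was most like that of the mRNAs GLIS3, a zinc finger transcription factor, MMP3, a matrix-degrading enzyme, and PPIB, a chaperone of collagen folding, with Pearson r of 0.983, 0.980 and 0.978. Such r values, here and below, are descriptions over libraries that share the group difference. After subtraction of the group means they were 0.971, 0.951 and 0.983. Of the marker lists the fibroblast list had the highest r to it, 0.836, and the cycling cell list the lowest, -0.832. After that subtraction these were 0.532 and -0.439, while the skeletal muscle, cartilage and endothelial lists were at 0.643, 0.565 and -0.789. The part of these lists in the result was not tested.

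APLN, the symbol of apelin, a peptide ligand with known actions on blood vessels, was at 13.3, 10.2, 14.0, 32.9 and 23.6 CPM in Perthes rabbits 1 to 5 and at 3.18, 6.21 and 6.95 CPM in the controls. The lowest Perthes rabbit was above the highest control, and the log2 fold change was 1.79 (SE 0.44, edgeR adjusted p = 0.0294). The mRNAs most like it were BHLHE40, a transcriptional repressor that responds to low oxygen, BCL9, a coactivator of Wnt signalling, and COL5A3, a fibrillar collagen chain (r of 0.986, 0.983 and 0.982). Its nearest tested mRNA gene in RefSeq order, OCRL, a phosphoinositide phosphatase, had a log2 fold change of 0.25 (edgeR adjusted p = 0.242).

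SMCO4, the symbol of a small membrane protein, was at 22.7, 21.7, 25.6, 13.6 and 23.3 CPM in Perthes rabbits 1 to 5 and at 12.1, 9.52 and 9.61 CPM in the controls. Perthes rabbit 4 was the lowest of its group and close to control 1, and the log2 fold change was 1.04 (SE 0.23, edgeR adjusted p = 0.0203). Its neighbour CEP295, a centriole protein, had a log2 fold change of -0.92 (SE 0.21, edgeR adjusted p = 0.0226), within the fold limit. The mRNAs most like SMCO4 were PEX7, HEATR3 and TBC1D2B (r of 0.991, 0.991 and 0.989). It also moved with the mean of the macrophage list, with r of 0.936 and, after subtraction of the group means, 0.838. After that subtraction the T cell list had a higher r, 0.930, but before it -0.038. The macrophage list, of which 7 of 10 genes were tested and 4 called higher, summed to 720 to 6905 CPM in the Perthes rabbits, with the lowest value in Perthes rabbit 4. In the controls it summed to 378 to 394 CPM, and the part of these lists in the result was not tested.

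LOC108176480, a lncRNA in RefSeq too, was at 18.1, 16.1, 20.6, 21.9 and 19.7 CPM in Perthes rabbits 1 to 5 and at 5.75, 14.6 and 8.31 CPM in the controls. Its Perthes values were close together and control 2 came near to them, with a log2 fold change of 1.01 (SE 0.29, edgeR adjusted p = 0.0453). It overlaps an mRNA gene in RefSeq that had a log2 fold change of 0.48 (edgeR adjusted p = 0.709). The mRNAs most like it were KHDRBS3, BCL9L and SOX17 (r of 0.987, 0.979 and 0.960). Of the marker lists the cycling cell list had the r farthest from 0 to APLN and to LOC108176480, at -0.846 and -0.851. Other lists were close in size with the other sign: the fibroblast list at 0.819 and 0.822, and the osteoclast list at 0.836 to LOC108176480. After subtraction of the group means the cycling cell list was at -0.410 and -0.412, and the T cell list was then the farthest, at -0.726 and -0.570. The fibroblast list was then at 0.440 for each, and the osteoclast list at 0.520 to LOC108176480. The part of these lists in the results was not tested.

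Among the lncRNAs called lower, LOC103350775 had the greatest difference. It was at 0.236, 9.96, 3.19, 3.46 and 1.06 CPM in Perthes rabbits 1 to 5 and at 34.5, 39.0 and 39.0 CPM in the controls, from 7, 266, 87, 95 and 31 counts against 967, 1107 and 1172. The controls were close together and the Perthes rabbits spread widely below them, with a log2 fold change of -3.39 (SE 0.81, edgeR adjusted p = 0.0263). The mRNAs most like it were HEMGN, a nuclear protein of blood-forming cells, ART4, a blood group antigen of red cells, and TSPAN33, a tetraspanin of red cell precursors (r of 0.996, 0.995 and 0.994). Its r to the mean of the erythroid list was 0.991, and 0.986 after subtraction of the group means. Other lists were close, with r of 0.988 (megakaryocyte), 0.967 (B cell), 0.962 (neutrophil) and 0.947 (cycling cells). After that subtraction these were 0.968, 0.921, 0.920 and 0.826. In the erythroid list 10 of 10 genes were tested and 1 was called lower, with a median log2 fold change of -3.04. The part of these lists in the result was not tested.

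BGIG9986_27810 had nearly the same size of difference but was not called. It was at 0.101, 17.2, 3.08, 4.15 and 0.477 CPM in Perthes rabbits 1 to 5 and at 45.8, 47.7 and 38.5 CPM in the controls, from as few as 3 counts in Perthes rabbit 1. The groups did not overlap, Perthes rabbit 2 was the highest of its group as it was for LOC103350775, and the log2 fold change was -3.14 (SE 1.07, edgeR adjusted p = 0.0782).

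LOC108175687 was at 4.42, 7.45, 7.49, 5.49 and 4.02 CPM in Perthes rabbits 1 to 5 and at 48.4, 15.0 and 10.4 CPM in the controls. Control 1 alone held 47.1% of its CPM summed over the rabbits, the largest such share of any member, and the log2 fold change was -2.09 (SE 0.46, edgeR adjusted p = 0.0211). Without control 1 the log2 fold change was -1.14 (edgeR adjusted p = 0.0760). The mRNAs most like it were MSRA, which repairs oxidized methionine, PIK3CD, a lipid kinase of white blood cells, and NOP56, a protein of ribosome assembly (r of 0.986, 0.985 and 0.983). Its r to the mean of the fibroblast list was -0.975, and -0.928 after subtraction of the group means. The mean log2 CPM of that list was lowest in control 1, at 6.86, where LOC108175687 was highest, and was 7.92 and 8.54 in controls 2 and 3 and 8.95 to 9.51 in the Perthes rabbits. Of its 8 genes 8 were tested and 3 called higher, and its part in the result was not tested.

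LOC103349113, which RefSeq types as protein coding and names IRS2, was at 6.08, 8.13, 4.77, 8.66 and 4.97 CPM in Perthes rabbits 1 to 5 and at 18.7, 15.8 and 12.1 CPM in the controls. The groups were clearly apart, with a log2 fold change of -1.25 (SE 0.25, edgeR adjusted p = 0.0165). Of the 26 members with a neighbouring mRNA gene in RefSeq order it was the only one whose neighbour was called: COL4A1, a chain of basement membrane collagen, averaged 1109 ± 176 CPM (SD, n = 5) in Perthes and 347 ± 89.9 CPM (SD, n = 3) in the controls, a log2 fold change of 1.68 (SE 0.25, edgeR adjusted p = 0.0118) opposite in direction to LOC103349113. The mRNAs most like LOC103349113 were MDC1, a protein of DNA damage signalling, SYTL4 and ELMOD1 (r of 0.989, 0.986 and 0.986). Its r to the mean of the cycling cell list was 0.934, and 0.667 after subtraction of the group means. For the osteoclast list these were -0.897 and -0.689. The cycling cell list summed to 285 to 764 CPM in Perthes and 1553 to 1829 CPM in the controls, and the part of these lists in the result was not tested.

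Which members were called depended on single rabbits, and no call of these 7 held in every fit with 1 rabbit left out. Without control 1, none of the 7 passed (edgeR adjusted p of 0.0564 to 0.139), nor did any without control 2 (0.0519 to 0.136). Without Perthes rabbit 5 LOC103349113 was the only one still called (edgeR adjusted p = 0.0487). Without Perthes rabbit 3, APLN, SMCO4, LOC108176480 and LOC103350775 were not called (0.0524, 0.0512, 0.0920 and 0.0663), and without Perthes rabbit 1, BGIG9986_26941 and LOC108176480 were not (0.0616 and 0.0630). Without Perthes rabbit 4, LOC108176480 was not called (0.0645), and without control 3, SMCO4, LOC108176480 and LOC103350775 were not (0.0539, 0.113 and 0.0505). Their directions were the same in all of these fits.

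The number of members whose groups did not overlap was 9 with Perthes higher and 9 with Perthes lower, against 11.2% and 13.9% of all genes tested. Of those not called, LOC108175901 and LOC103350441 passed the adjusted p with log2 fold changes of -0.97 and -0.95 (edgeR adjusted p = 0.0160 and 0.0216), and LOC103349811 with 0.71 (edgeR adjusted p = 0.0458). LOC108175901 was at 20.7, 15.4, 14.3, 22.8 and 17.5 CPM in Perthes rabbits 1 to 5 and at 29.2, 38.0 and 39.6 CPM in the controls. The rest with Perthes lower were BGIG9986_24849, BGIG9986_27896 and BGIG9986_27368, besides BGIG9986_27810, and the rest with Perthes higher were LOC103345192, LOC108176783 and LOC103348318, besides BGIG9986_25196. None of these passed the adjusted p. The nearest tested mRNA gene to LOC103345192 in RefSeq order was AHSP, the chaperone of alpha globin. LOC103345192 had a log2 fold change of 0.69 (edgeR adjusted p = 0.0835), while AHSP had -3.15 (edgeR adjusted p = 0.107). LOC108176783 overlaps ITPRIPL2 in RefSeq, and these had log2 fold changes of 0.76 and 0.73 (edgeR adjusted p = 0.0666 and 0.0228).

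The other members with a gene name did not pass the test. ZBTB38, the symbol of a zinc finger protein that binds methylated DNA, was the steadiest, at 76.9 ± 4.84 CPM (SD, n = 5) in Perthes and 81.5 ± 3.54 CPM (SD, n = 3) in the controls. SCRG1, the symbol of a secreted protein linked to cartilage formation, was at 32.9, 15.4, 20.1, 81.1 and 38.3 CPM in Perthes rabbits 1 to 5 and at 13.6, 16.5 and 25.1 CPM in the controls, with a log2 fold change of 1.03 (SE 0.52, edgeR adjusted p = 0.203). Its highest value was in Perthes rabbit 4, which also had the highest sum of the cartilage list, 154540 CPM, and the part of that in the result was not tested. The log2 fold changes of RPS28 (ribosomal protein), CDC42SE2 (effector of the GTPase CDC42), GNG5 (G protein subunit), ATP5MD (ATP synthase subunit) and NDUFA1 (respiratory complex I subunit) were -0.14, -0.35, 0.01, 0.13 and 0.24. In RefSeq RPS28, GNG5, SCRG1 and ATP5MD overlap a neighbouring mRNA gene, as do 4 other members. The library kit keeps strand, but whether the counting used it is not given in the sources used here, so reads of overlapping genes may not be told apart.

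SMIM30 (LOC103348677) was at 30.1, 16.1, 18.3, 9.93 and 19.5 CPM in Perthes rabbits 1 to 5 and at 7.43, 8.92 and 9.94 CPM in the controls, with a log2 fold change of 1.099 (edgeR adjusted p = 0.0513). Perthes rabbit 4 was level with control 3 and the other 4 were above every control. The other members that RefSeq types as protein coding, LOC103345823 and LOC108177718, had log2 fold changes of -0.55 and -0.10 (edgeR adjusted p = 0.266 and 0.779). For the 26 members with a RefSeq neighbour, the fitted changes of member and neighbour had the same sign in 17.

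Beneath the few calls, the fitted changes of the members leaned to lower values in Perthes. Of the 200, 165 (82.5%) had a negative log2 fold change and 35 a positive one, with a median of -0.40 and quartiles of -0.55 and -0.14. The median of all genes tested was 0.02 with 48.4% negative, and that of the other 1089 lncRNAs tested was -0.33 with 69.7% negative. Few of these differences passed the test member by member: unadjusted p was below 0.05 for 30 members lower and 10 higher, against 16.6% and 15.3% of all genes tested, so that the number lower was not above that of genes in general. The lean was mainly that of the BGIG members, of which 92.7% were negative. Of the LOC members 56.1% were negative, nearer to all genes tested, and a difference between these classes was not tested. Of the 150 with a BGIG identifier, 139 had a negative log2 fold change (median -0.44) and 1 was called, for the 41 with a LOC number 23 were negative (median -0.16) and 4 were called, and for the 9 with a gene name 3 were negative (median 0.13) and 2 were called.

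**Figure D3:**
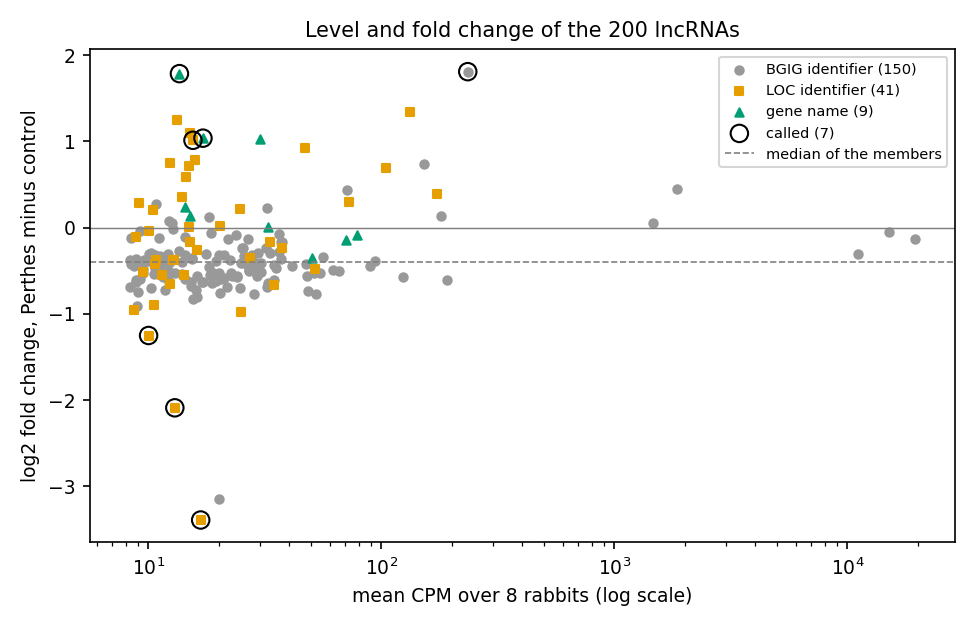
Each point is 1 of the 200 lncRNAs, with its mean CPM over the 8 rabbits on a log scale and its fitted log2 fold change of Perthes over control. Symbols mark the 150 BGIG identifiers, the 41 LOC numbers and the 9 gene names, rings mark the 7 called, and most BGIG points lie near the dashed median of -0.40. Of the 5 most counted lncRNAs, BGIG9986_27345 lies at 0.45 and the others lie nearer to 0 than that median.

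The lean did not run evenly through the Perthes group. When each member was centred on its own mean log2 CPM over the 8 rabbits, the median of the 200 deviations was -0.52, -0.03, -0.20, 0.43 and -0.44 in Perthes rabbits 1 to 5 and 0.25, 0.27 and 0.30 in controls 1 to 3. Perthes rabbits 1 and 5 lay farthest below the controls, Perthes rabbits 2 and 3 between, and Perthes rabbit 4 above all 3 controls. For the 150 BGIG members the medians were -0.65, 0.01, -0.21, 0.45 and -0.48 against 0.28, 0.32 and 0.36, and for the other 50 they were 0.15, -0.09, -0.13, 0.19 and 0.06 against 0.06, 0.07 and 0.01, where the groups overlapped. The groups also overlapped for the BGIG members, through Perthes rabbit 4.

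**Figure D4:**
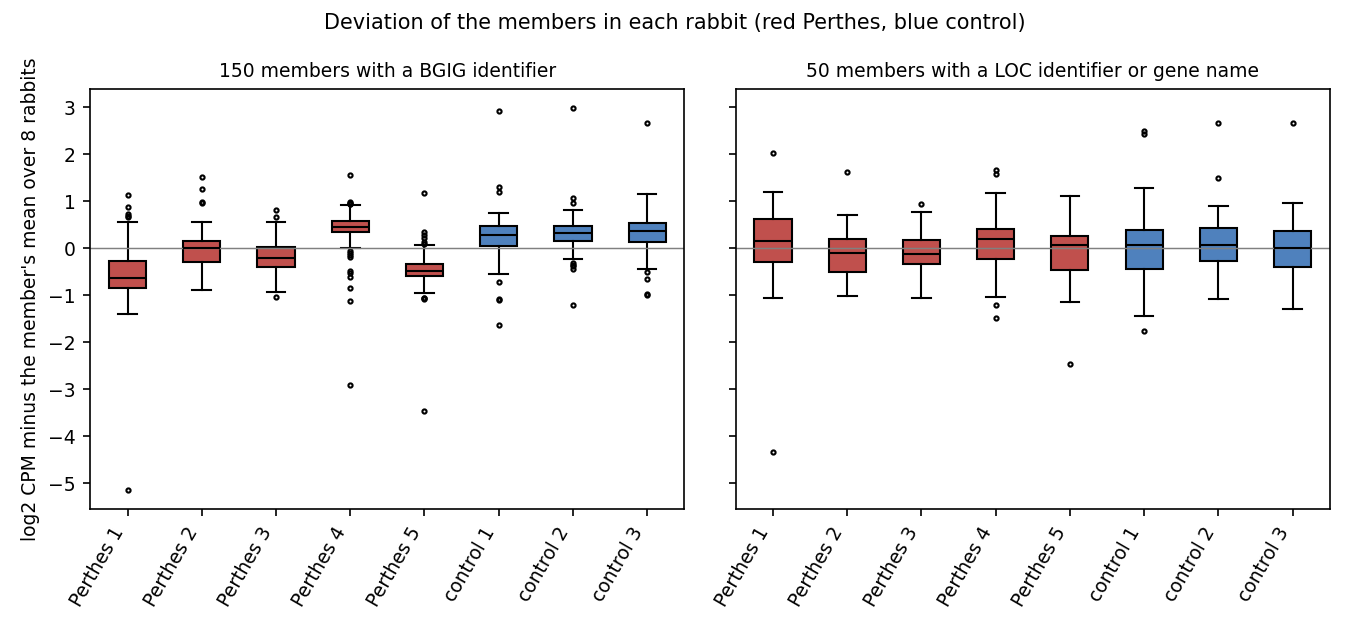
Boxes show, for each rabbit, the deviation of log2 CPM from each member's mean over the 8 rabbits, with the 150 BGIG members on the left and the other 50 on the right (centre line, median; box, quartiles; whiskers, the farthest point within 1.5 box lengths). On the left the median runs from -0.65 in Perthes rabbit 1 to 0.45 in Perthes rabbit 4 and the 3 controls lie at 0.28 to 0.36, whereas on the right all medians lie between -0.13 and 0.19.

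Perthes rabbit 4 had the highest level of the Perthes rabbits for 145 of the 200 members, was at or above the lowest control for 182, and was above the highest control for 75. It held the highest value of all 8 rabbits for 62 members, and Perthes rabbit 1 the lowest for 88. An example is BGIG9986_28176, at 42.0, 31.2, 32.4, 68.7 and 30.5 CPM in Perthes rabbits 1 to 5 and at 54.8, 75.1 and 79.6 CPM in the controls, where Perthes rabbit 4 lay within the controls and the other 4 below all of them. BGIG9986_26957 was at 7.70, 9.77, 11.7, 23.3 and 7.42 CPM against 19.2, 23.8 and 20.7 CPM, again with Perthes rabbit 4 within the controls and the other 4 below all of them. These 2 were picked as examples after their values were seen. The other 4 Perthes rabbits were all below the lowest control for 86 members (43.0%), 78 of them BGIG, against 16.8% of all genes tested, a split set after seeing the data and given as a description.

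In the planned fit without Perthes rabbit 4, 14 of the 200 members were called lower and 4 higher. Of all genes tested 6.97% were called lower and 5.49% higher. At this fold limit the members called lower were thus at about the share of genes in general, and those called higher below it. Of the 14, 10 were BGIG identifiers, 3 were those called with all rabbits, and the other was LOC108175901. With no fold limit and edgeR adjusted p below 0.05, 5 members were lower with all rabbits, against 8.86% of all genes tested. Without Perthes rabbit 4, 52 members were. The share of all genes with no fold limit was not analysed here for the fit without that rabbit. The BGIG members with the largest changes in that fit were BGIG9986_25431 at -1.43 and BGIG9986_24852 at -1.28 on the log2 scale (edgeR adjusted p = 0.0162 for each), which were at -0.91 and -0.80 with all 8 rabbits (edgeR adjusted p = 0.205 and 0.225). The median log2 fold change of the members was -0.57 without that rabbit, beside 0.02 for all genes, with 166 negative. Perthes rabbit 4 had the highest cartilage sum of the Perthes rabbits, and the lowest sums of the macrophage, B cell (76.5 CPM), T cell (7.71 CPM), adipocyte (129 CPM) and osteoclast (2856 CPM) lists. Its erythroid, neutrophil and megakaryocyte sums of 1006, 3045 and 34.1 CPM lay within the range of the other Perthes rabbits. A sum can rest on 1 abundant gene. By mean log2 CPM its B cell list was not the lowest, at 1.74 against 0.838 to 2.23 in the other Perthes rabbits. Its neutrophil list was the highest, at 7.92 against 2.61 to 7.90. The part of these in the difference was not tested.

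The members varied together. In log2 CPM, 99 of the 200, 93 of them BGIG, had r above 0.8 over the 8 rabbits to the profile of median deviations, against 5.16% of all genes tested. As the members make up that profile, this is a description. A first principal component held 60.3% of the variance of the members and a second 19.5%. On the first, Perthes rabbit 1 (-11.0) and Perthes rabbit 5 (-7.90) lay at one end, the 3 controls at the other (5.88 to 6.42), and Perthes rabbit 4 (3.59) nearest to the controls. Within the groups, the median CV of the members' CPM was 34.5% in Perthes and 16.1% in the controls, beside 25.8% and 22.0% for all genes tested. No member had over 50% of its summed CPM in 1 rabbit, and 169 to 187 of the 200 were among the 200 highest lncRNAs of each single rabbit.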

How the data were processed

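Total RNA libraries of 5 Perthes and 3 control rabbits were used. The authors filtered reads with SOAPnuke, mapped them with HISAT2 2.0.4 and counted genes by use of HTSeq 1.99.2 and RSEM 1.1.17 (versions per the labels), and deposited expected counts per gene, which are estimated and share reads between similar genes. Per library, 10.0% to 10.7% of values differed from a whole number by over 0.001, and all were rounded. A further 8 per-sample columns, identical to those used, were left out. The small RNA table was not used. Members and lists were chosen with earlier results of these data known. Members were ranked by plain CPM. Levels are TMM-scaled CPM, and log2 CPM has a prior count of 2.

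Counts of all genes were fitted with edgeR 4.0.16 in R 4.3.3 (TMM, filterByExpr by group, glmQLFit and glmQLFTest, no covariate, common biological CV 0.361), with DESeq2 1.42.0 as an alternative. TMM factors were 0.928 to 1.08. The SE is the log2 fold change divided by the square root of F. Adjusted p-values are Benjamini-Hochberg over the 15305 genes tested. Shares were compared with exact two-sided permutation tests. The code was tested on simulated data.

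Named were the 10 most abundant members, the called members with groups apart and the 3 symbol-named mRNAs most like each, members with gene names, those at the limit of the list, the 5 with the largest share of summed CPM in 1 rabbit and those RefSeq types as protein coding. Others named were chosen after their values were seen. RefSeq (mOryCun1.1) is not the build of the files, so its positions served only for gene order and overlap, and no coordinates are given. A neighbour is the nearest mRNA gene among those tested, so other genes can lie between it and the member. Promoter letters and sequences were not analysed here.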

Additional observations from a re-analysis of the deposited data

Results flagged for a closer look

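Of 33 sets of values of named members and shares in the 5 Perthes rabbits, 2 had a single rabbit far from the others. The gap test used is passed by chance in about 1 of 20 sets that were not chosen for such a gap. That rate does not hold for LOC108177642, which was named for its large share of summed CPM in Perthes rabbit 1. For LOC108177642, Perthes rabbit 1 was at 41.1 CPM and the other Perthes rabbits at 7.20 to 13.7 CPM, a gap of 0.808 of the whole range where the limit is 0.71. For BGIG9986_27810, Perthes rabbit 2 was at 17.2 CPM and the others at 0.101 to 4.15 CPM, a gap of 0.763 of the range. Neither lncRNA was called between the groups. LOC108177642 had a log2 fold change of 1.25 (SE 0.62, edgeR adjusted p = 0.195), and overlaps DNM3, a dynamin, in RefSeq. The cause of the high values was not tested.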

How the results depend on the processing

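With all rabbits 4 members were called higher and 3 lower. DESeq2 called 5 and 3, DESeq2 size factors 5 and 3, no filter 4 and 3, and at least 10 counts in every library 3 and 2. Scaling by library totals gave 2 and 5. That scaling moved the median of all genes to -0.06 and that of the members to -0.51. Without a fold limit 5 and 5 passed, and at a log2 fold change beyond 2 with adjusted p below 1e-05, 0 and 0 (10 and 30 at unadjusted p below 0.05). Of the 200 with the highest median CPM, a ranking that high controls alone cannot set, 1 was called lower. With 1 rabbit left out, 0 to 4 were called higher and 0 to 14 lower. The counts were 2 and 4 without Perthes rabbit 1, 4 and 6 without Perthes rabbit 2, 1 and 2 without Perthes rabbit 3, 4 and 14 without Perthes rabbit 4, 0 and 1 without Perthes rabbit 5, 0 and 1 without control 1, and 0 and 0 without control 2 (edgeR, with 11 and 9 at unadjusted p below 0.05). The median log2 fold change of the members was negative in all these fits, from -0.58 to -0.30.

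The titles of 2 controls both say replicate 2, and number 3 was taken from the library code of one of them. With the numbers 1 to 3 so set, the correlations of same-numbered rabbits' deviations were -0.32, 0.16 and -0.24, so the numbers were not taken to pair the rabbits. With the replicate block, edgeR called 0 and 0 (7 and 53 at unadjusted p below 0.05), and the 7 members had adjusted p of 0.122 to 0.269.

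The Perthes minus control difference in the share of counts on the members was -0.86 points of the library and 0.43 points of lncRNA counts (exact permutation p = 0.571). For the most counted member's share of lncRNA counts it was -0.12 points, and -1.16 to 1.03 with 1 rabbit left out. Of 30 named members, 23 kept their direction under every alternative. The 7 that did not were all uncalled. With library totals BGIG9986_29289 was at -0.028 and GNG5 at -0.057 on the log2 scale, with at least 10 counts GNG5 was at -0.0062, and with the replicate block BGIG9986_29289, GNG5 and ATP5MD were at -0.044, -0.19 and -0.055. With 1 rabbit left out, the ranges were -0.33 to 0.14 for BGIG9986_29669, -0.26 to 0.27 for BGIG9986_29683, -0.13 to 0.17 for BGIG9986_29289, -0.11 to 0.29 for BGIG9986_29290, -0.26 to 0.10 for RPS28, -0.17 to 0.17 for GNG5 and -0.064 to 0.29 for ATP5MD. The filter of 10 counts left no value for LOC103350775 and BGIG9986_27810. The causes were not tested.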
